A study of Mus musculus with 10 samples.

Results

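The interleukin and chemokine genes were taken as all protein-coding genes of the mm10 gene table whose symbol began with Il, Ccl or Cxcl and a number, or was Ccr or Cxcr and a number. There were 136 such genes among the 21900 protein-coding genes of the table. Ccl21c lay on an unplaced scaffold and was not analysed here, which left 135 genes among 21779 on assembled chromosomes. By known function 75 of them encode ligands, 57 encode receptors and 3 encode other proteins (the interleukin-binding protein Il18bp and the amino acid oxidases Il4i1 and Il4i1b). The rule uses symbols only and no measured value, but it was chosen with earlier results of these data known.

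Chromatin of Glast+ cells from retinas of C57BL/6 mice at P28 (postnatal day 28) was profiled by chromatin immunoprecipitation and sequencing for 4 histone H3 marks, each in an experiment named Exp1 and another named Exp2. All 8 libraries share the strain, age and cell preparation, and there is no treated, mutant or other comparison group. Chromatin of 25000 cells went into each immunoprecipitation, and the labels do not say which animals each experiment used, so differences between Exp1 and Exp2 may be technical. For each library the authors deposited a list of enriched regions, called islands, without read counts, so the depth is unknown and a missing island can mean either no mark or too few reads.

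Interleukins and chemokines are secreted signals of inflammation: interleukins act through receptor chains that pair at the cell surface and signal through JAK kinases and STAT factors or through NF-kB, and chemokines guide migrating cells through receptors coupled to G proteins. Müller glia, which span the retina and carry the glutamate transporter Glast (Slc1a3), can both release such signals and respond to them after injury, while the resident immune cells of the retina are the microglia. H3K4me3 marks promoters that are active or ready for use, H3K4me1 marks enhancers and the flanks of promoters, H3K27me3 is laid down by Polycomb complexes, and H3K9me3 marks heterochromatin.

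The promoters below illustrate 2 features of sequence that are counted further on, a motif and the number of CG dinucleotides. Whether either feature bears on the marks was not tested. They are RefSeq promoters (GRCm38.p6, the build of mm10) and run 5′ to 3′ along the gene's strand over 300 bases, 250 before and 50 after the annotated start. The first 3 belong to inflammatory ligands at whose start no H3K4me3 island was present in both experiments, and the capitals mark the kappa B motif, a binding sequence of NF-kB, searched on both strands as GGGA, any base, then TTTCC. They are Il6 (chr5:30012864-30013163, plus strand), Cxcl1 (chr5:90890995-90891294, plus strand) and Cxcl2 (chr5:90903649-90903948, plus strand).
Il6: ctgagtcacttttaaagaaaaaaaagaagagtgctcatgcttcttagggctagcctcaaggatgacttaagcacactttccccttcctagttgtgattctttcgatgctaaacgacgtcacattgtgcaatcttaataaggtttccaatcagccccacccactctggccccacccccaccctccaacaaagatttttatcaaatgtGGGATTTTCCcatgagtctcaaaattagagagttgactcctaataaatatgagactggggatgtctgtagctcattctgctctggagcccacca
Cxcl1: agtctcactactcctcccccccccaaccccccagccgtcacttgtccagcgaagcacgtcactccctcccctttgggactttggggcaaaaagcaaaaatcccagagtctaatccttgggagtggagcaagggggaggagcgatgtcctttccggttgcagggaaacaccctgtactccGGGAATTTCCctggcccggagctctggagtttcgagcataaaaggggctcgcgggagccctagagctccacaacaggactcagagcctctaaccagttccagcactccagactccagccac
Cxcl2: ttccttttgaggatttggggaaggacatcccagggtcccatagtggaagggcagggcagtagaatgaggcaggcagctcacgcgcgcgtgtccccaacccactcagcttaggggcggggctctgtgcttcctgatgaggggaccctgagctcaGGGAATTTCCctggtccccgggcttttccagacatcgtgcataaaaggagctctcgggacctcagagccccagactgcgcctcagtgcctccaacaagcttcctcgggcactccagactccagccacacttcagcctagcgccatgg
The motif began 44 bases before the annotated start of Il6, 71 bases before that of Cxcl1 and 97 bases before that of Cxcl2.

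The next 5 promoters show the range of CG content, with every CG dinucleotide in capitals. Il6st (chr13:112463820-112464119, plus strand) and Cxcl12 (chr6:117168285-117168584, plus strand) carried H3K4me3 without H3K27me3. Cxcl14 (chr13:56296502-56296801, minus strand) carried both marks. Il33 (chr19:29924863-29925162, plus strand) carried H3K4me3 on a promoter with few CG dinucleotides, and Il7r (chr15:9529827-9530126, minus strand) carried H3K27me3 without H3K4me3.
Il6st: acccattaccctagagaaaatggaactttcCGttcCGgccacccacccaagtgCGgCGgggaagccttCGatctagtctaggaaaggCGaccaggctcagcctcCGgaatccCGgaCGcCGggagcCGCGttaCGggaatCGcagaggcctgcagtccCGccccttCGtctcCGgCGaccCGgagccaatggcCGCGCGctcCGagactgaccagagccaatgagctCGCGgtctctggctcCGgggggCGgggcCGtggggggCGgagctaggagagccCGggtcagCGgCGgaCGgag
Cxcl12: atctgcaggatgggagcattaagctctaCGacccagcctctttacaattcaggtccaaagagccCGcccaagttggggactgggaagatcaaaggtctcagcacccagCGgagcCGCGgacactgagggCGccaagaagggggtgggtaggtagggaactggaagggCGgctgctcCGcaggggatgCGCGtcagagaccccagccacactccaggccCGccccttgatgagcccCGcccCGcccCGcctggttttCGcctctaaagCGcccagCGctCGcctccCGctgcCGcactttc
Cxcl14: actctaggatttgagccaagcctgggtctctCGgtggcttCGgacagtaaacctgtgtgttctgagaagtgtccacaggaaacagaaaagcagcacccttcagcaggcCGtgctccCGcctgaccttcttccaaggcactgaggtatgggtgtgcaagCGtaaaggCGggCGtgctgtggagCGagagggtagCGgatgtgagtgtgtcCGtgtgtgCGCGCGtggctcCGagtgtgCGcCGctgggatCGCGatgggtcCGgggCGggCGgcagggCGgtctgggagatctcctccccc
Il33: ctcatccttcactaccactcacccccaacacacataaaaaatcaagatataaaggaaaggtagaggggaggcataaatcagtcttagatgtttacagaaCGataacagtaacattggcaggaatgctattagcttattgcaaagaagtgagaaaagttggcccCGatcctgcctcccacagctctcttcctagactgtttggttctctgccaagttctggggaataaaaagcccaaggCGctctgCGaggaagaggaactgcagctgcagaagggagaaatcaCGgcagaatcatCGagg
Il7r: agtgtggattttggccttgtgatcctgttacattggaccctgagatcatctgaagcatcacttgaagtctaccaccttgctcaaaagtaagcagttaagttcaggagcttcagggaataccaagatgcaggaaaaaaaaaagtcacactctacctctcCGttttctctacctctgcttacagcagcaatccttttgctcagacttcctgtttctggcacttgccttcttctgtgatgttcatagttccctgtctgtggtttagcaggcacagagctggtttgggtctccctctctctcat
The window held 33 CG dinucleotides at Il6st, 20 at Cxcl12, 22 at Cxcl14, 6 at Il33 and 1 at Il7r. In the promoters printed before these, where CG is not in capitals, it held 3 at Il6, 10 at Cxcl1 and 11 at Cxcl2.

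A majority of the interleukin and chemokine genes carried none of the 4 marks at their ends in both experiments. A gene was counted as marked when islands of both experiments overlapped the same gene end, taken as 1 kb either side, by 1 bp or more. By that measure H3K4me3 marked 33 of the 135 genes (24.4%), against 58.9% of all protein-coding genes. H3K4me1 marked 35 of the 135 genes (25.9%), against 54.8% of all protein-coding genes. H3K27me3 marked 20 of them (14.8%), against 23.4% of all protein-coding genes. H3K9me3 marked 8 (5.93%), against 13.5% of all protein-coding genes. H3K4me3 and H3K27me3 lay at the same end of 7 (5.19%), a share near the 5.77% of all protein-coding genes. None of the 4 marks was present at an end of 78 genes (57.8%), against 19.1% of all protein-coding genes. With Exp1 islands alone the unmarked genes were 47 of 135 (34.8%), against 13.1% of all protein-coding genes, and with Exp2 islands alone 73 of 135 (54.1%), against 16.5% of all protein-coding genes. Under the rule of both experiments the share was lower than that of all protein-coding genes for each of the 4 marks. For H3K27me3 this did not hold with Exp1 islands alone, which marked 29.6% of the genes, against 29.5% of all protein-coding genes. With an island in either experiment the H3K27me3 share was 32.6%, near the 33.2% of all protein-coding genes. These shares describe the lists and were not tested, since the genes are not replicates of one another and neighbouring genes share islands.

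Receptor genes carried H3K4me3 more often than ligand genes in these lists, which held among interleukin genes but not among chemokine genes. H3K4me3 marked 12 of 75 ligand genes (16.0%) and 20 of 57 receptor genes (35.1%), against 58.9% of all protein-coding genes. The shares were 17.3% of ligand genes and 36.8% of receptor genes with the Exp1 islands alone, and 20.0% of ligand genes and 36.8% of receptor genes with the Exp2 islands alone. Among genes with no other protein-coding gene within 5 kb, the shares were 13.2% of ligand genes and 34.2% of receptor genes. H3K4me1 marked 16 ligand genes (21.3%) and 17 receptor genes (29.8%), and H3K27me3 marked 10 ligand genes (13.3%) and 10 receptor genes (17.5%). H3K9me3 marked 6 ligand genes and 2 receptor genes. None of the marks was present at 50 ligand genes (66.7%) and at 27 receptor genes (47.4%). Interleukin receptors accounted for most of the marked receptor genes, with H3K4me3 at 18 of 41 (43.9%). Only Cxcr4 and Ccr10 carried it among the 16 chemokine receptors (12.5%). Among the ligands, H3K4me3 marked 5 of 39 interleukin genes (12.8%) and 7 of 36 chemokine genes (19.4%). The chemokine genes thus had the reverse order, with a higher share among ligands than among receptors.

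**Figure D1:**
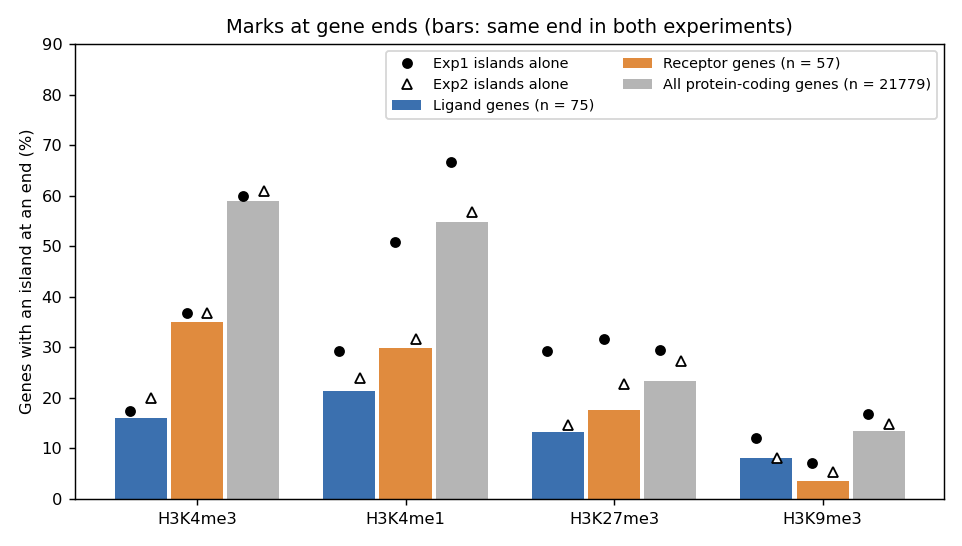
Share of ligand genes, receptor genes and all protein-coding genes with an island at an end, in percent, for each histone mark. Bars require the same end in both experiments, circles use Exp1 islands alone and triangles Exp2 islands alone; H3K4me3 bars stand at 16.0% for ligands, 35.1% for receptors and 58.9% for all protein-coding genes.

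Among the ligands with H3K4me3, the chemokine genes were Cxcl12, Cxcl14, Cxcl16, Ccl25, Ccl27a, Ccl27b and Ccl21b. Cxcl12, a constitutive chemokine that signals through Cxcr4, had an H3K4me3 island of 3.6 kb (Exp1) and 1.6 kb (Exp2) at its start. Cxcl16, which exists as a transmembrane and a shed form, had islands of 3.8 kb (Exp1) and 1.8 kb (Exp2). Its window also held the ends of Med11 and Zmynd15, so the island cannot be assigned to Cxcl16 alone. Ccl25, a chemokine of thymus and gut, had 3.4 kb in Exp1 and 3.6 kb in Exp2, and the end of Elavl1 lay within the same window.

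The interleukin ligands with H3K4me3 were Il33, Il15, Il7, Il17d and Il1f9. Il33, a nuclear alarmin released by damaged cells, had islands of 4.8 kb (Exp1) and 2.4 kb (Exp2). Il15, which supports natural killer and memory T cells, had 4.4 kb in Exp1 and 2.2 kb in Exp2. Il7, a survival factor for lymphocytes, had narrower islands of 1.4 kb (Exp1) and 1.2 kb (Exp2), and Il17d had 2.6 kb in Exp1 and 1.6 kb in Exp2. All 12 ligand islands except those of Ccl25 and Ccl27a were wider in Exp1. Il1f9, a member of the interleukin 1 family expressed in epithelia, was marked only at the far end of the gene, and its islands had deposited p-values of 0.00337 in Exp1 and 0.000112 in Exp2, which are the authors' own. Against the median p-values of the lists, 2.53e-200 in Exp1 and 5.49e-113 in Exp2, those islands were among the weaker ones.

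Many ligands of acute inflammation and of T cells were unmarked. Il1b, Il6, Il10, Il2 and Il4, and the chemokine genes Ccl2, Ccl5 and Cxcl10, had no island of any mark at the same end in both experiments. The nearest H3K4me3 island lay 52.6 kb from Il6 in Exp1 and 52.0 kb in Exp2, and 65.8 kb from Il1b in Exp1 and 66.4 kb in Exp2. It lay 65.2 kb from Ccl2 in Exp1 and 65.8 kb in Exp2. Il34, a ligand of the receptor Csf1r on which microglia depend, also lacked all 4 marks, and its nearest H3K4me3 island was 16.8 kb away in Exp1 and 16.4 kb in Exp2. Over the 63 ligand genes without H3K4me3 the median distance to the nearest H3K4me3 island was 39.8 kb in Exp1 and 34.9 kb in Exp2.

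A few inflammatory ligands had H3K4me3 in a single experiment. Cxcl1, a neutrophil chemokine, had an island of 1.4 kb in Exp2 with a deposited p of 4.73e-12, and no island within 36.9 kb in Exp1. Il18, an interleukin processed by inflammasomes, had 1.6 kb in Exp2 and none within 18.8 kb in Exp1, although H3K4me1 marked its start with 3.2 kb in Exp1 and 1.6 kb in Exp2. Cxcl5 had an H3K4me3 island of 0.8 kb in Exp2 alone. Il1a counted as marked in Exp1 only because an island of 3.2 kb lay 0.808 kb from the gene, and in Exp2 the nearest island was 1.41 kb away. In all, 2.96% of the interleukin and chemokine genes and 2.0% of protein-coding genes had H3K4me3 in Exp2 alone.

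**Figure D2:**
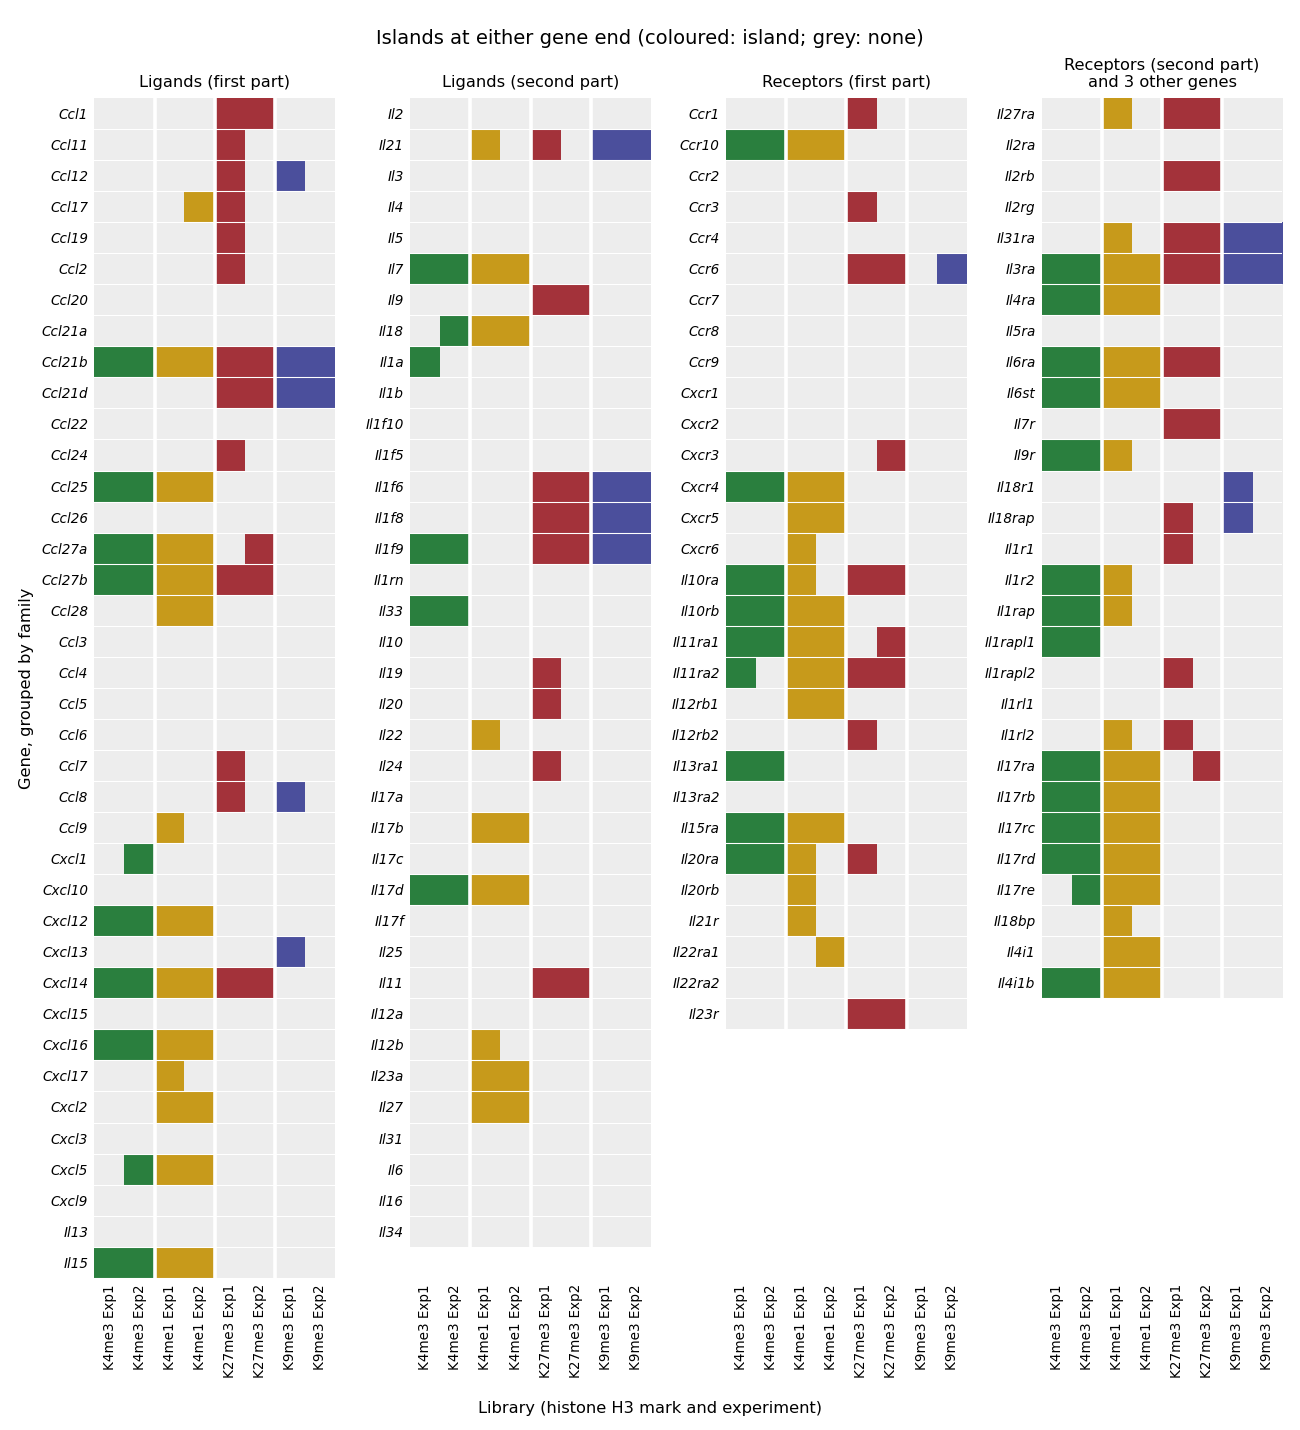
Islands at either end of each of 134 of the 135 genes, one row per gene and one column per library, grouped by family. Coloured cells have an island within 1 kb of an end and grey cells have none; Il27 has H3K4me1 in both columns but at different ends, and the interleukin 17 receptor genes near the end of the last panel are filled for H3K4me1 in both experiments.

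The cytokine receptor chains Il6st, Il11ra1, Il13ra1, Il4ra and Il10rb carried H3K4me3. Il6st, the signal-transducing chain shared by interleukins 6 and 11 and by leukaemia inhibitory factor and ciliary neurotrophic factor, had H3K4me3 islands of 4.4 kb (Exp1) and 4.0 kb (Exp2). By the narrower of the 2 experiments, 19.2% of all protein-coding genes with H3K4me3 had an island at least as wide. Il11ra1, the binding chain for interleukin 11, had 1.4 kb in Exp1 and 2.2 kb in Exp2. Il13ra1, a chain of the receptor for interleukins 4 and 13, had 1.0 kb in each experiment, and its partner Il4ra had 2.4 kb in Exp1 and 4.8 kb in Exp2. Il10rb, the shared second chain of the interleukin 10 family receptors, had 1.4 kb in Exp1 and 3.2 kb in Exp2, with the end of Ifnar2 in the same window. The common gamma chain Il2rg, used by lymphocyte interleukins, had no mark in both experiments, and Il2rb, a chain of the receptors for interleukins 2 and 15, carried H3K27me3 without H3K4me3.

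The interleukin 17 receptor family had the highest share of genes with H3K4me3 among the ligand and receptor families. H3K4me3 marked 4 of its 5 genes and H3K4me1 all 5, and H3K27me3 marked none in both experiments. Il17ra, the chain shared by most members of the family, had H3K4me3 islands of 1.8 kb (Exp1) and 1.4 kb (Exp2). Il17rd, a member that also restrains fibroblast growth factor signalling, had 2.6 kb in each experiment. Il17rb had 1.4 kb in Exp1 and 0.8 kb in Exp2, with the end of Chdh in its window. Il17rc was marked only at the end far from its start, where the end of Creld1 lies, so its island cannot be separated from that of the neighbour. Il17re had H3K4me3 in Exp2 alone. Of the 6 interleukin 17 ligands, only Il17d carried H3K4me3.

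In the interleukin 1 receptor family, H3K4me3 marked 3 of 9 genes. Il1rap, the accessory chain needed for signalling by interleukins 1 and 33, had 3.0 kb in each experiment. Il1rapl1, a synaptic relative of it, had 3.2 kb in Exp1 and 2.8 kb in Exp2, and Il1r2, a decoy receptor that binds interleukin 1 without signalling, had 1.4 kb in Exp1 and 1.6 kb in Exp2. Il1r1, the signalling receptor itself, had no mark in both experiments at its outer gene ends, and H3K27me3 lay at an end in Exp1 alone. It had H3K4me3 islands of 2.4 kb (Exp1) and 2.6 kb (Exp2) at an annotated start inside the gene, at position 40266586 of chromosome 1, whose promoter held 14 CG dinucleotides. The outer ends therefore miss a marked start of this gene. Il1r1 and Ccl28, an epithelial chemokine gene, were the 2 genes with H3K4me3 in both experiments within the gene and at neither end.

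Cxcr4, the receptor of Cxcl12, had H3K4me3 islands of 4.8 kb (Exp1) and 3.4 kb (Exp2) and H3K4me1 islands of 5.8 kb (Exp1) and 2.8 kb (Exp2). Ccr10, a receptor of skin-homing lymphocytes, had the widest H3K4me3 islands of all 135 genes, 9.6 kb in Exp1 and 10.6 kb in Exp2. The end of Cntnap1, a gene of axon and glia contacts, lay within 1 kb, and the island covered the whole of Ccr10. The immune cell receptors Ccr2 and Ccr7 had no mark at an end in both experiments. Within Ccr7, away from its ends, H3K4me1 covered 33.1% of the gene in Exp1 and 36.8% in Exp2. The nearest H3K4me3 island to Ccr2 was 168 kb away in Exp1 and 170 kb in Exp2. Another gene's end lay within 1 kb of the marked end for 2 of the 12 ligand genes with H3K4me3 and for 5 of the 20 receptor genes with H3K4me3. Where the strand was known, 24 of 26 genes with H3K4me3 had it at the end with the transcription start, which is 24 of 104 genes with a known strand, against 57.3% of all protein-coding genes.

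**Figure D3:**
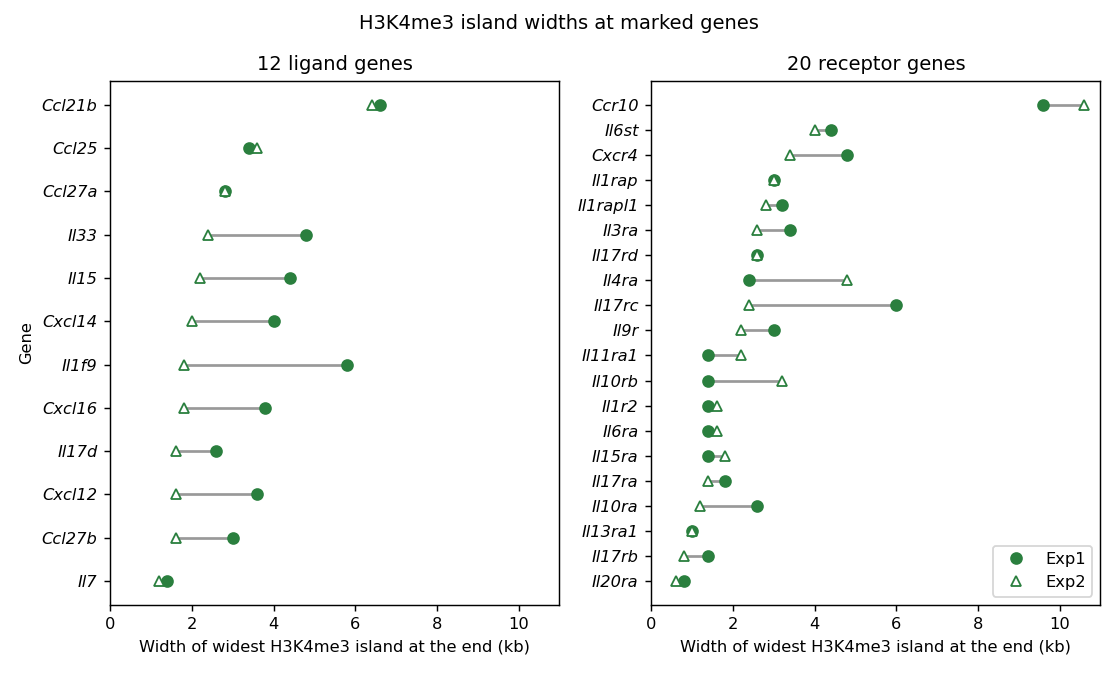
Width in kb of the widest H3K4me3 island at the marked end of each of the 12 ligand genes and 20 receptor genes with the mark in both experiments, circles for Exp1 and triangles for Exp2. Ccr10 stands at 9.6 and 10.6 kb, and Il20ra, a subunit of receptors for the interleukin 20 group, has the narrowest islands at 0.8 and 0.6 kb.

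H3K4me3 islands were somewhat narrower at these genes than at all marked protein-coding genes, though not at ligand genes in Exp1. The median width at the 33 marked genes was 3.0 kb in Exp1 and 2.2 kb in Exp2, against 3.4 kb (Exp1) and 2.8 kb (Exp2) at all marked protein-coding genes. It was 3.7 kb (Exp1) and 1.9 kb (Exp2) at ligand genes, and 2.5 kb (Exp1) and 2.3 kb (Exp2) at receptor genes. H3K4me1 islands had median widths of 3.6 kb (Exp1) and 3.0 kb (Exp2), against 5.6 kb (Exp1) and 3.6 kb (Exp2) at all marked protein-coding genes. When each list was limited to its stronger islands, those whose deposited p did not exceed the list median, there was H3K4me3 at 6.67% of the genes, against 40.9% of all protein-coding genes, with 4.0% of ligand genes and 8.77% of receptor genes.

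H3K27me3 was shared by neighbours and by both roles. The 10 ligand genes with it were Il1f8, Il1f9, Il1f6, Il9, Il11, Ccl1, Ccl21b, Ccl21d, Ccl27b and Cxcl14, and the 10 receptor genes were Il6ra, Il10ra, Il3ra, Il11ra2, Il23r, Il27ra, Il31ra, Il7r, Il2rb and Ccr6. The 20 genes lay in 16 separate islands in each experiment, with a median width of 255 kb (Exp1) and 175 kb (Exp2). Il3ra, a receptor chain for interleukin 3, lay in islands of 555 kb (Exp1) and 460 kb (Exp2). Il10ra, the specific chain for interleukin 10, lay in 350 kb in Exp1 and 465 kb in Exp2, and Il2rb, a chain of the receptors for interleukins 2 and 15, in 305 kb in Exp1 and 585 kb in Exp2. Il7r, the receptor of interleukin 7 on lymphocytes, lay in islands of 65.0 kb in each experiment. At the end that holds the transcription start, H3K27me3 marked 12.7% of ligand genes and 15.2% of receptor genes, against 21.5% of all protein-coding genes.

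At 7 genes H3K4me3 and H3K27me3 met at the same end: Il1f9, Ccl21b, Ccl27b and Cxcl14 among the ligands, and Il6ra, Il10ra and Il3ra among the receptors. Cxcl14, a chemokine made by many resting tissues, had H3K4me3 islands of 4.0 kb (Exp1) and 2.0 kb (Exp2) inside H3K27me3 islands of 325 kb (Exp1) and 335 kb (Exp2), which also reached Il9. Il6ra, the binding chain for interleukin 6, had H3K4me3 islands of 1.4 kb (Exp1) and 1.6 kb (Exp2) inside H3K27me3 islands of 135 kb (Exp1) and 190 kb (Exp2). Its partner Il6st carried H3K4me3 without H3K27me3. The libraries came from many cells, so whether both marks sat on the same chromatin or in different cells cannot be told apart.

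H3K27me3 was also the mark whose gene list depended most on the experiment. It was present in Exp1 alone at 20 genes (14.8%), against 6.01% of all protein-coding genes, and in Exp2 alone at 4 genes (2.96%), against 3.72% of all protein-coding genes. With Exp1 islands alone it marked 29.3% of ligand genes and 31.6% of receptor genes, against 29.5% of all protein-coding genes. With Exp2 islands alone it marked 14.7% of ligand genes and 22.8% of receptor genes, against 27.2% of all protein-coding genes. The ligand genes thus stood at the share of all genes in Exp1 and well under it in Exp2. The genes with H3K27me3 in Exp1 alone included Ccl2, Ccl7, Ccl8, Ccl11 and Ccl12, which attract monocytes and eosinophils and lay under 1 shared island. They also included Il19, Il20 and Il24 of the interleukin 10 family, which lay under 1 other island. The gene counts therefore rest in part on few islands. The Exp1 list held 7743 H3K27me3 islands and the Exp2 list 4105, and the part of that difference in these genes was not tested. H3K4me1 was present in Exp1 alone at 18 genes (13.3%), against 11.5% of all protein-coding genes, and in Exp2 alone at 2 genes (1.48%), against 1.75% of all protein-coding genes, shares near those of all genes. With Exp1 islands alone H3K4me1 marked 50.9% of receptor genes, against 66.6% of all protein-coding genes. With Exp2 islands alone it marked 31.6% of receptor genes, against 56.8% of all protein-coding genes.

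H3K9me3 marked 8 genes, most of them in islands far wider than the gene. Il1f8, Il1f9 and Il1f6 shared islands of 147 kb (Exp1) and 150 kb (Exp2), and Il3ra lay in 456 kb in Exp1 and 162 kb in Exp2. Il21, a T cell interleukin, lay in islands of 42.0 kb in each experiment, and Ccl21b and Ccl21d were also marked. All of these except Il21 carried H3K27me3 as well. The median width was 100.5 kb in Exp1 and 137 kb in Exp2, against 465 kb (Exp1) and 387 kb (Exp2) at all marked protein-coding genes.

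Genes in clusters carried H3K4me3 and H3K4me1 less often than the other interleukin and chemokine genes. They carried H3K9me3 more often than those, but less often than all protein-coding genes. Joining genes 500 kb or less apart gave 79 loci, of which 54 held a single gene and 9 held 3 or more. The 9 loci held 49 genes, of which 6 carried H3K4me3 (12.2%) and 36 carried none of the marks (73.5%). Of the 86 genes in loci of 1 or 2 genes, 27 carried H3K4me3 (31.4%) and 42 none (48.8%). Over all protein-coding genes 58.9% carried H3K4me3 and 19.1% none. In the loci of 3 or more, H3K4me3 marked 4 of 35 ligand genes and 2 of 14 receptor genes, and in the smaller loci 8 of 40 ligand genes (20.0%) and 18 of 43 receptor genes (41.9%). H3K4me1 marked 14.3% of the genes in the larger loci, against 32.6% in the smaller ones and 54.8% of all protein-coding genes. H3K27me3 marked 8 genes in the larger loci (16.3%), against 12 in the smaller ones (14.0%) and 23.4% of all protein-coding genes. Among ligand genes alone it marked 7 of 35 (20.0%), against 3 of 40 (7.5%). H3K9me3 marked 5 genes in the larger loci (10.2%), against 3 in the smaller ones (3.49%) and 13.5% of all protein-coding genes. Those 5 were ligand genes of 2 loci. Il1f8, Il1f9 and Il1f6 lay under shared islands, and Ccl21b and Ccl21d lie in the locus of near-identical copies described below. Genes of a locus share islands, and these differences were not tested.

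The interleukin 1 ligand locus on chromosome 2 was divided. Il1f8, Il1f9 and Il1f6 lay under islands that covered 53.9% of the span for H3K27me3 and 52.9% for H3K9me3 in both experiments, and Il1f5, Il1f10 and the receptor antagonist Il1rn carried no mark. In the interleukin 1 receptor locus on chromosome 1, which holds Il1r2, Il1r1, Il1rl2, Il1rl1, Il18r1 and Il18rap, only Il1r2 was marked in both experiments, by H3K4me3. In Exp1 alone H3K27me3 lay at an end of Il1r1, Il1rl2 and Il18rap. H3K9me3 lay at an end of Il18r1 and Il18rap, and H3K4me1 at an end of Il1r2 and Il1rl2, also in Exp1 alone. H3K27me3 covered 32.5% of the span in Exp1 and 16.1% in Exp2, and H3K9me3 covered 30.3% in Exp1 and none in Exp2. The Ccl2 to Ccl1 locus on chromosome 11 lay wholly under 1 H3K27me3 island of 265 kb in Exp1. In Exp2 an island of 75.0 kb covered 41.5% of the span, and Ccl1 was the only gene of the 6 with the mark in both. In the Il24 to Il10 locus an island of 100 kb covered 68.5% of the span in Exp1, and Exp2 had none.

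Other clusters had few marks at gene ends. The Ccl5 to Ccl4 locus, which holds Ccl5, Ccl9, Ccl6, Ccl3 and Ccl4, had no H3K4me3, H3K27me3 or H3K9me3 island in either experiment, and H3K4me1 covered 5.18% of its span in Exp1 and 1.73% in Exp2. The Il4, Il13 and Il5 locus, a cluster of T helper cytokines, had no mark at an end in both experiments and no H3K27me3 or H3K9me3 island. In the Cxcl5 to Cxcl2 locus of neutrophil chemokines, Cxcl5 and Cxcl2 carried H3K4me1 and no gene carried H3K4me3 in both experiments. At Cxcl2 the H3K4me1 island was 2.6 kb wide in Exp1 and 1.4 kb in Exp2. H3K27me3 covered 30.7% of the span of this locus in each experiment. H3K9me3 covered 28.6% of it in Exp1 and 26.6% in Exp2. Neither H3K27me3 nor H3K9me3 lay at an end of its interleukin or chemokine genes.

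**Figure D4:**
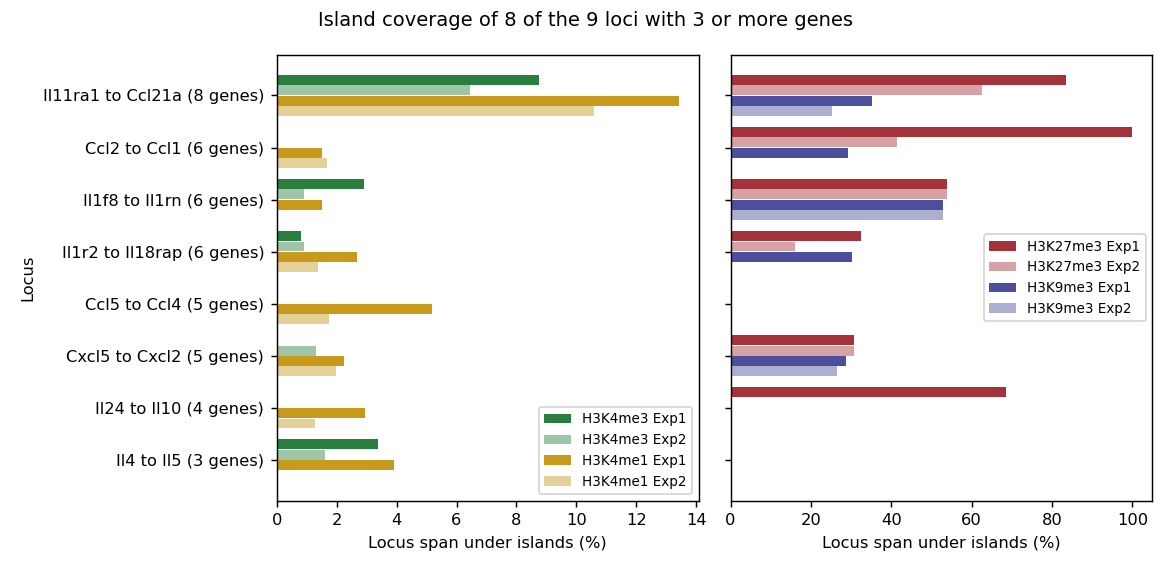
Percent of the span of each of 8 of the 9 loci with 3 or more genes that lies under islands, with H3K4me3 and H3K4me1 on the left and H3K27me3 and H3K9me3 on the right on a wider scale, darker bars for Exp1 and paler bars for Exp2. The Ccl2 to Ccl1 locus shows 100% H3K27me3 in Exp1 and 41.5% in Exp2, and the Ccl5 to Ccl4 locus shows none.

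The Il11ra1 to Ccl21a locus on chromosome 4 holds near-identical copies, and its values are uncertain for that reason. The promoters of Ccl21a and Ccl21d were identical at 297 of 299 aligned bases, and those of Ccl27a and Ccl27b at 286 of 288. Reads from such copies may map to more than 1 place, and how the authors placed them is not given in the sources used here. Ccl21d lay under H3K27me3 and H3K9me3 and Ccl21a carried no mark in both experiments. Ccl21b has a gene model of 83.7 kb, against 1.13 kb for Ccl21a, and its H3K4me3 islands of 6.6 kb (Exp1) and 6.4 kb (Exp2) lie at the start of that long model. Without the 8 genes of this locus, H3K4me3 marked 22.8% of the genes, 13.0% of ligand genes and 34.5% of receptor genes, and H3K27me3 marked 12.6% of the genes.

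CG content separated promoters with and without H3K4me3 among these genes as among all genes. RefSeq promoters were matched for 104 of the 135 genes, 126 promoters in all, since some genes have several starts that can overlap. The median promoter held 4 CG dinucleotides, against 13 over all 21263 promoters. Promoters with H3K4me3 in both experiments held a median of 19, against 22 over all marked promoters, and those without held 3.5, against 3. Of the promoters with 10 or more CG dinucleotides, 21 of 32 carried H3K4me3 (65.6%), against 91.2% of all promoters of that class. The share was 7 of 14 for ligand promoters and 13 of 17 for receptor promoters. Of the promoters with 0 to 4 CG dinucleotides, 2 of 65 carried H3K4me3 (3.08%), against 9.21% of all such promoters. The classes were set after the files were seen.

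**Figure D5:**
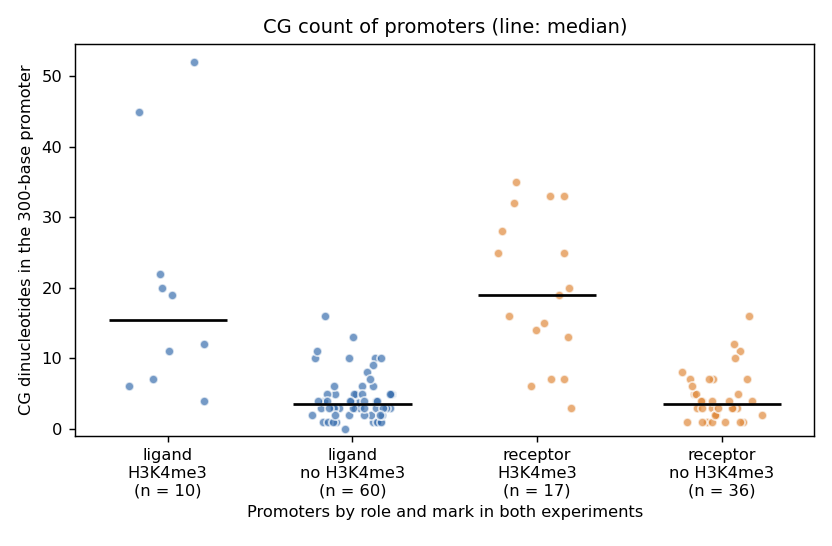
Number of CG dinucleotides in each 300-base promoter of ligand and receptor genes, by H3K4me3 at that start in both experiments; each point is a promoter and lines are medians. Ligand promoters have medians of 15.5 with the mark and 3.5 without, and receptor promoters 19 with the mark and 3.5 without.

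The kappa B motif occurred in 6 of the 126 promoters (4.76%), against 0.423% of all promoters of the same length. The 6 belonged to Il6, Cxcl1, Cxcl2, Cxcl3, Il16 and Ccr3. None of those starts carried H3K4me3 in both experiments, while the start of Cxcl1 had its island in Exp2 alone. Only 28 of the 126 promoters (22.2%) carried H3K4me3, so 6 promoters are too few to show a link with the motif. Over all protein-coding genes, 46 of the 90 promoters with the motif carried H3K4me3. In Cxcl1, Cxcl2 and Cxcl3 the motif read GGGAATTTCC, and in Il6 it read GGGATTTTCC. In the best alignment without gaps, 94 of 276 bases of the Cxcl1 and Cxcl2 promoters were identical. Such an alignment cannot score stretches shifted by unlike distances. The printed sequences of Cxcl1 and Cxcl2 share such stretches around the motif and after the start, so their full likeness was not measured. The letters TATAAA, searched on both strands, occurred in 30.0% of ligand promoters and 5.66% of receptor promoters, against 12.6% of all promoters. A match to a motif is a description of the letters and does not show binding.

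Distal H3K4me1, meaning islands over 2.5 kb from every protein-coding gene end and within the gene or up to 10 kb from it, was found in both experiments at 20 of the 135 genes (14.8%), against 27.2% of all protein-coding genes. The genes are also shorter, with a median length of 8.53 kb, against 17.2 kb over all protein-coding genes, and the search space grows with length. Of the 20 genes, 17 had no H3K4me3 at an end, against 1369 of the 5919 protein-coding genes with distal H3K4me1, and only 33 of the 135 genes carried H3K4me3 at an end at all. Il10 had 2 such islands in each experiment, Il22ra1, a receptor chain for interleukin 22, had 3 in each, and Ccl28 had 3 in Exp1 and 2 in Exp2. Il1r1 had 2 in Exp1 and 3 in Exp2. Il1r1 and Ccl28 count among the 17 genes, but both had H3K4me3 within the gene. Distance was taken from outer gene ends only, so their H3K4me1 islands may lie beside that H3K4me3, which was not tested.

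The signalling genes downstream of these receptors were marked far more often than the ligands. In lists of related genes outside the symbol rule, H3K4me3 marked 16 of 17 genes of the JAK and STAT pathway, with Stat4 as the exception, and 16 of 17 genes of interleukin 1 and 17 receptor signalling and NF-kB, with Nfkb2 as the exception. It marked 6 of 16 other cytokines (37.5%) and 13 of 17 other cytokine receptors (76.5%). The share of all protein-coding genes with H3K4me3 was 58.9%, so the other cytokines stood below it and the other 3 lists above it. Osmr, the oncostatin M receptor that pairs with Il6st, had 2.4 kb in Exp1 and 3.6 kb in Exp2. Tnf, Ifng and Ifnb1 carried none of the marks. Among the 12 chemokine family genes outside the rule, H3K4me3 marked Cx3cl1, Ccrl2 and Xcr1. Whether ends of other genes lay in the same windows was not checked for genes outside the rule, so these islands may belong to neighbours.

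Markers of the cell types that the preparation could hold were looked up in the same lists. H3K4me3 marked 9 of 10 Müller glia markers, the exception being Aqp4, and also 6 of 8 rod markers, against 58.9% of all protein-coding genes. It marked 2 of 12 microglia markers, namely Cd68 and C1qc, and H3K27me3 marked 5 of the 12, against 23.4% of all protein-coding genes. Aif1, Cx3cr1, Csf1r and P2ry12 carried no mark. H3K4me3 marked 2 of 7 endothelial markers and 2 of 8 lymphocyte markers. The part of each cell type in the marks at the interleukin and chemokine genes was not tested.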

How the data were processed

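Each of 8 ChIP-seq libraries (4 marks, 2 experiments each) has a deposited island list; the 2 input libraries were not used here. Per the submitters' processing notes, the genome was mm10 and the tools were SICER, bedtools 2.17, SAMtools 1.3.1, BWA 0.7.5a and FastQC. SICER merges enriched windows into islands, and neither its settings nor its control is given in the sources used here. The authors deposited a position and a p-value per island, and no source says if it was adjusted (a q-value). Island bounds were multiples of 200 bp for H3K4me3 and H3K4me1, 3000 bp for H3K9me3 and 5000 bp for H3K27me3, so marks were called at different resolution and widths are compared within a mark only. The lists used here hold no read counts, so no depth, interval or test was computed.

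Gene positions came from a RefSeq table of GRCm38.p6 with mm10 coordinates, without strand; strands came from the RefSeq promoter table. Scripts used Python 3.11.15, pandas 2.3.3 and numpy 2.4.6, and the overlap code was tested on simulated data. The members, roles and gene lists were chosen with earlier results of these data known. Named genes were a fixed set of inflammatory genes, those with both marks, the 5 with the widest islands per mark, and examples in alphabetical order by role, state, locus or single experiment; a few more were picked with their values in view. Alternatives tried were each experiment alone, either experiment, windows of 500 bp, 2.5 kb or the gene body, 50% of the window covered, stronger p-values, the start alone, isolated genes, no near-identical copies and other locus distances. Protein sequences were not used here. One gene enters the counts but is not reported by name or drawn, and neither is the locus that holds it.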

Additional observations from a re-analysis of the deposited data

How the results depend on the processing

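No paired analysis was possible because the results come from no test. Windows of 500 bp or 2.5 kb, the gene body, coverage of 50% of the window, the start alone, isolated genes and, chosen after seeing the data, any annotated start or leaving out the locus of near-identical copies moved none of the 10 shares by more than 1.5 times, and joining loci at 100 kb or 1 Mb gave 85 or 76 loci. With Exp1 or Exp2 left out in turn, the shares of genes ranged as follows, each against the range of all protein-coding genes. They were 25.9% to 27.4% for H3K4me3, against 59.9% to 60.9%, and 28.1% to 40.0% for H3K4me1, against 56.8% to 66.6%. The range was 17.8% to 29.6% for H3K27me3, against 27.2% to 29.5%, and 6.67% to 9.63% for H3K9me3, against 14.9% to 16.8%. Both marks together stood at 6.67%, against 7.87% to 8.53%, and no mark at 34.8% to 54.1%, against 13.1% to 16.5%. Ligand genes ranged over 17.3% to 20.0% for H3K4me3 and 14.7% to 29.3% for H3K27me3, and receptor genes stood at 36.8% for H3K4me3 and ranged over 22.8% to 31.6% for H3K27me3. An island in either experiment gave 41.5% for H3K4me1, against 68.3% of all protein-coding genes, and 10.4% for H3K9me3, against 18.2%. It gave 8.15% for both marks, against 10.9%, and 32.6% for none, against 11.4%. For H3K27me3 it gave 32.6% (ligands 30.7%, receptors 36.8%), against 33.2% of all protein-coding genes. Under that setting the H3K27me3 share was thus near that of all genes, and the receptor share stood above it. Keeping the islands whose p did not exceed the median of the list gave 6.67% for H3K4me3 (ligands 4.0%, receptors 8.77%), against 40.9% of all protein-coding genes. It gave 10.4% for H3K4me1, against 32.5%, 2.96% for H3K9me3, against 11.2%, and 0.741% for both marks, against 0.955%. Fewer islands enter under the last setting, and depth per library is unknown, which limits every statement about a missing island.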
